A study of Mus musculus with 23 samples.

Results

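Secondary follicle oocytes of mice at postnatal day 8 were compared with primordial germ cells (PGCs) of embryos at E12.5, which places the growth of the oocyte in the animal beside the germ cells it descends from. The members were the 6 samples of these groups, 3 of each, of 23 samples in the series. Both groups were of the strain B6D2F1 and both were sorted by the BVSC transgenes, a pair of fluorescent reporters driven by Prdm1 and Dppa3 sequences, so the levels of these genes are not independent of the sort. The labels give no sex for the E12.5 PGCs. Between 337 and 812 oocytes went into each secondary follicle library, and no cell number is given for the PGCs. Poly(A) RNA was sequenced from directional libraries, and the deposited table holds 1 FPKM value (fragments scaled to transcript length and to the mapped fragments of the library) per gene and group. The 3 samples of a group are therefore not seen separately, no difference below has a replicate check, and the depth behind each value is unknown. In such bulk samples, fewer cells of a type and less RNA per cell cannot be told apart.

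PGCs are the embryonic founders of eggs and sperm. They keep many genes of pluripotent cells on while they proliferate, and in the female gonad they then enter meiosis, arrest in its prophase and are enclosed by somatic cells in follicles. The oocyte next grows without dividing. It builds the zona pellucida, the glycoprotein coat around the egg, signals to the granulosa cells around it, and stores the messages and proteins that later carry the early embryo.

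Of 22784 gene symbols in the table, 12545 had at least 1 FPKM in either group and were compared as the difference of log2(FPKM + 1), oocytes minus PGCs, a scale that understates the differences of low genes. A difference of at least 1 on this scale, that is 2-fold, was called. In oocytes 3466 genes (27.6% of those compared) were higher and 3683 (29.4%) were lower, and 5396 (43.0%) were within 2-fold. The median difference was -0.11. Far larger differences were more often upward, with 877 genes (6.99%) at least 8-fold higher and 449 (3.58%) at least 8-fold lower. At 64-fold the counts were 132 genes (1.05%) higher and 15 (0.12%) lower. Lgals3 lay just inside the upper threshold at 1.00029 and Cep57 just outside at 0.999974, while Runx1t1 was just inside the lower one at -1.00028 and Asnsd1 just outside at -0.999176. RNA was also more concentrated in oocytes, where the 10 most abundant genes held 10.3% of the summed FPKM, against 5.36% in PGCs. There were 22 genes at or above 1000 FPKM in oocytes and 9 in PGCs. The gene lists below held 870 genes of the table, and each count is of the members compared, since those below 1 FPKM in both groups were left out. Each list count is to be read beside the 27.6% higher and 29.4% lower of all compared genes. Of the compared genes, 1695 reached 1 FPKM only in oocytes and could not have been called lower. Another 1832 reached it only in PGCs and could not have been called higher.

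**Figure D1:**
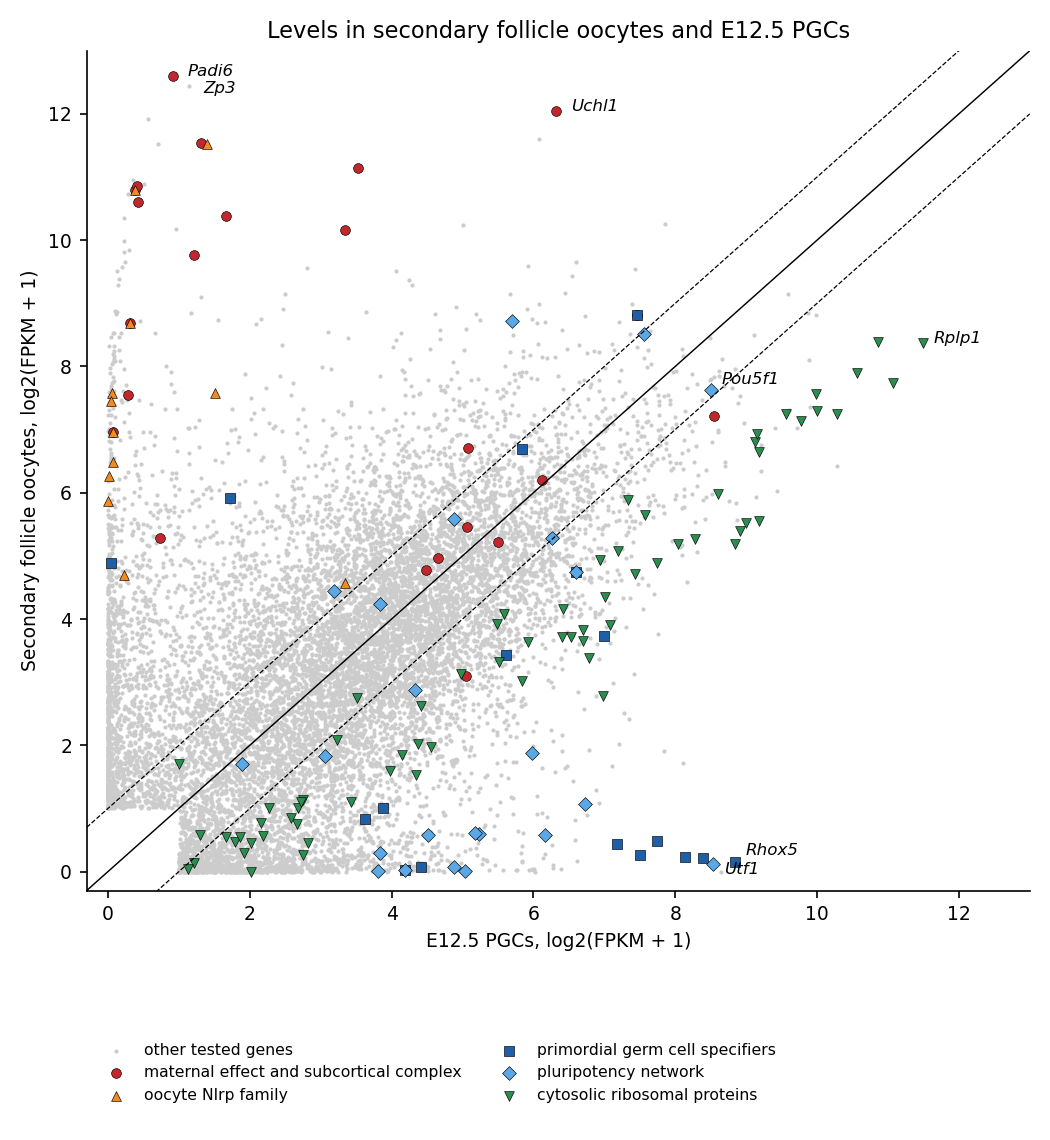
Level of each compared gene in secondary follicle oocytes (vertical axis) and E12.5 PGCs (horizontal axis), both as log2(FPKM + 1) with 1 value per group; the solid line marks equal levels and the dashed lines 2-fold. Most genes of the maternal effect list and the 12 Nlrp genes lie above the upper dashed line, most germ cell specifiers along the bottom right, and most ribosomal protein genes below the lower dashed line.

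Marker genes of each cell type were read first. The oocyte markers Zp3, Gdf9, Bmp15, Figla and Nobox had between 117 and 5544 FPKM in oocytes and between 0.580 and 2.58 FPKM in PGCs. Of the germ cell markers, Nanos3 was near 0 in oocytes at 0.0472 FPKM, against 20.3 FPKM in PGCs, and Ddx4, Dazl, Dppa3 and Pou5f1 were well above 1 FPKM in both. Markers of other cells were low for the most part, with exceptions. Of 21 granulosa cell markers, 6 reached 1 FPKM in either group, and the list summed to 43.5 FPKM in oocytes and 23.7 FPKM in PGCs. Of these 6, 4 were higher in oocytes and 2 lower, with a median difference of 1.18. Most of the oocyte sum came from Nr5a2, a nuclear receptor gene, at 20.7 FPKM in oocytes and 8.10 FPKM in PGCs, and from Esr2, an oestrogen receptor gene, at 12.0 FPKM in oocytes and 0.0753 FPKM in PGCs. Amh and Inha were also higher, at 1.69 and 2.98 FPKM in oocytes, against 0.0607 and 0.839 FPKM in PGCs. Foxl2, a granulosa cell transcription factor gene, had 0.387 FPKM in oocytes and 0.319 FPKM in PGCs. The 18 stromal and theca markers summed to 17.0 FPKM in oocytes and 38.9 FPKM in PGCs, most of the PGC sum being Vim, an intermediate filament gene, at 27.5 FPKM, and most of the oocyte sum Gata4, a transcription factor gene, at 10.8 FPKM in oocytes and 0.319 FPKM in PGCs. The 18 blood and endothelial markers summed to 13.6 FPKM in oocytes and 74.4 FPKM in PGCs, of which Pecam1, an adhesion molecule that PGCs also carry, gave 63.0 FPKM. The 13 male germ line markers summed to 187 FPKM in oocytes and 107 FPKM in PGCs. Of these 13, 4 were compared, 2 higher in oocytes and 1 lower, with a median difference of 2.41. Dnmt3l and Nanos2 were higher, at 54.7 and 28.7 FPKM in oocytes, against 0.00949 and 0.0330 FPKM in PGCs, and Piwil4 was lower. Most of the PGC sum was Tex19.1, at 103 FPKM in oocytes and 105 FPKM in PGCs. The Y-linked genes Ddx3y, Eif2s3y, Uty and Kdm5d were listed at 0 in both groups. The part of these other cells in the differences below was not tested.

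Genes of the egg coat were among those with the largest upward differences. Of 12 genes listed for the coat and egg surface, 11 were higher in oocytes and 1 was lower, with a median difference of 7.78. Of these 12, 8 were below 1 FPKM in PGCs. These 8 were compared only through oocytes and could not have been called lower. Zp3, a zona pellucida glycoprotein that takes part in sperm binding, had 5544 FPKM in oocytes, against 1.22 FPKM in PGCs, a difference of 11.29. Its zona partner Zp2 had 3870.0 FPKM in oocytes, against 0.476 FPKM in PGCs, and Zp1, which crosslinks the coat's filaments, 1991 FPKM in oocytes, against 0.274 FPKM in PGCs. All 3 zona genes were thus abundant in oocytes and near or below 1 FPKM in PGCs. Astl, the protease that cleaves ZP2 after fertilization, had 900.2 FPKM in oocytes and 0.169 FPKM in PGCs. The gene that was lower was Cd81, a tetraspanin, at 1.33 FPKM in oocytes and 13.0 FPKM in PGCs. Together the 12 genes held 4.42% of the summed FPKM in oocytes and 0.0266% in PGCs. They include Zar1, at 1549.9 FPKM in oocytes, which encodes an RNA-binding protein and not a coat or surface protein. Zar1 is also counted below with the maternal effect and the mRNA storage genes.

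Of 6 oocyte growth factor genes compared, 4 were higher and 2 lower, with a median difference of 4.97. Gdf9, by which the oocyte drives granulosa cell growth, had 2936 FPKM in oocytes, against 0.637 FPKM in PGCs. Its close relative Bmp15 had 239 FPKM in oocytes, against 0.849 FPKM in PGCs, a difference of 7.02. Bmp6 and Fgf8 were also higher, by 5.73 and 4.20. The lower pair were both ligands of the Nodal branch of the TGF-beta family: Gdf3 had 0.00738 FPKM in oocytes and 13.0 FPKM in PGCs, and Nodal was listed at 0 in oocytes, with 1.54 FPKM in PGCs. Gdf9, Bmp15 and Bmp6 were below 1 FPKM in PGCs and could not have been called lower. Gdf3 and Nodal were below 1 FPKM in oocytes and could not have been called higher.

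**Figure D2:**
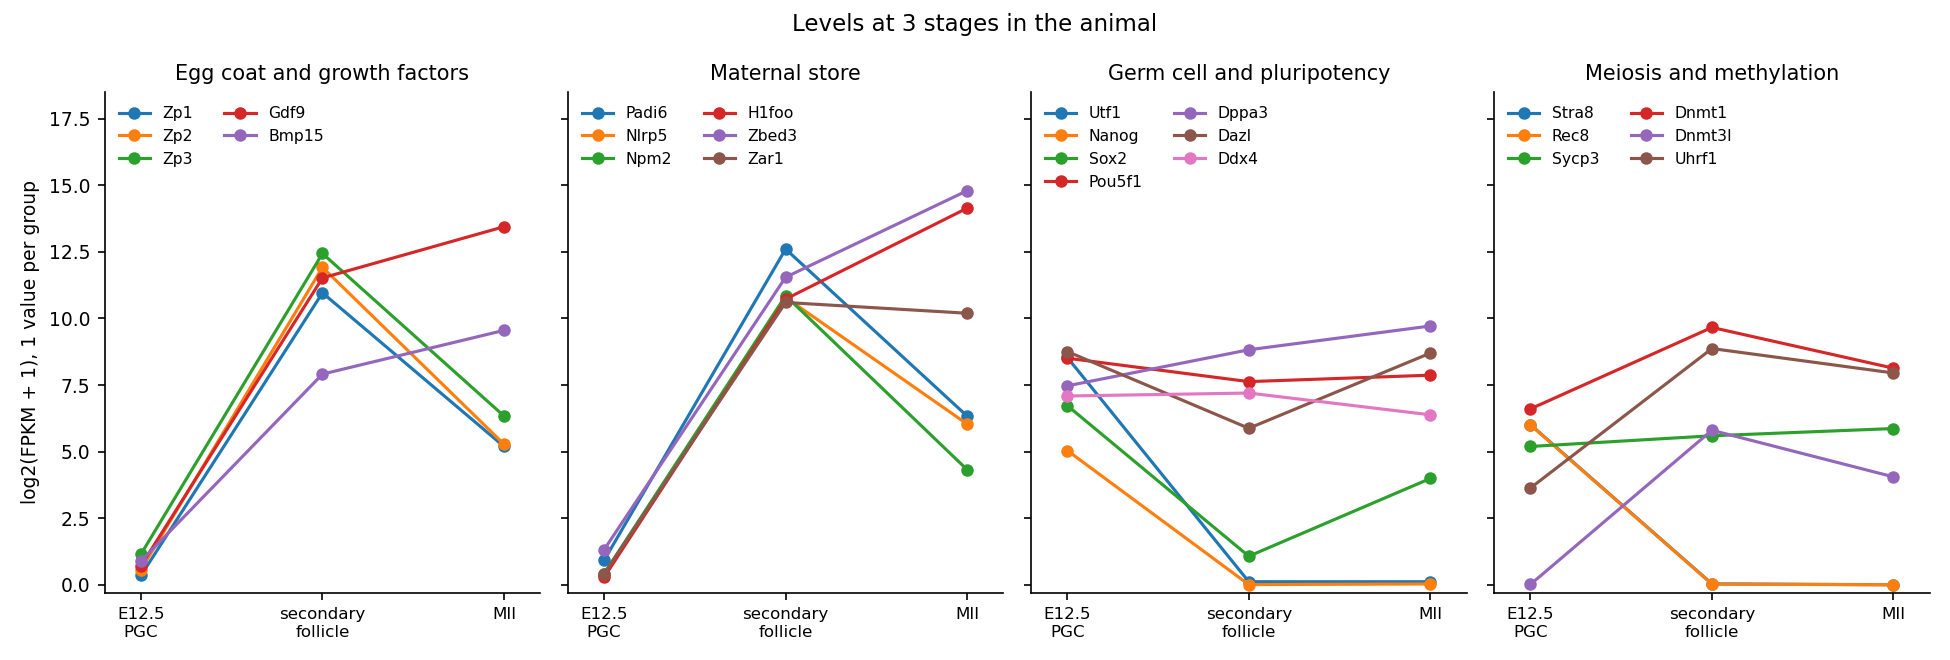
Levels of 24 genes, as log2(FPKM + 1) with 1 value per group, in E12.5 PGCs, secondary follicle oocytes and MII oocytes of the animal. Zona and maternal genes are near 0 in PGCs and high in secondary follicle oocytes, while Utf1, Nanog, Stra8 and Rec8 are near 0 in both oocyte stages.

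Of 19 compared genes on the list of oocyte transcription factors, 10 were higher and 3 lower, with a median difference of 3.03. Tcl1 and Dynll1 on this list do not encode transcription factors. Tcl1, a cofactor of AKT, was among the 10 higher, and its difference of 3.03 is the list median. Dynll1 was within 2-fold, at 0.42. Nobox, a homeodomain factor needed for follicles to form and grow, had 367 FPKM in oocytes, against 0.580 FPKM in PGCs. Figla, the basic helix-loop-helix factor that activates the zona genes, had 117 FPKM in oocytes, against 2.58 FPKM in PGCs. Lhx8, a LIM homeodomain factor, was higher by 5.93 and Tbpl2, the oocyte's TATA-binding protein, by 5.40. Sohlh2 went the other way, at 0.902 FPKM in oocytes and 68.6 FPKM in PGCs; it encodes a germ cell basic helix-loop-helix factor of early follicles.

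The promoters of 4 genes are shown because these genes differ by far more than 2-fold, Zp3, H1foo and Bmp15 upward and Utf1 downward. They were chosen after their sequences had been seen. Each is the 250 bases before a RefSeq gene start on GRCm38.p6, given 5′ to 3′ on the gene's strand, with capitals for CANNTG (the E-box of basic helix-loop-helix factors), TAATTA and TAATTG (homeodomain cores) and TATAAA (the TATA box), searched on both strands. Zp3 is at chr5:135979855-135980104 on the plus strand, H1foo at chr6:115944681-115944930 on the plus strand, Bmp15 at chrX:6320725-6320974 on the minus strand and Utf1 at chr7:139943606-139943855 on the plus strand.
Zp3: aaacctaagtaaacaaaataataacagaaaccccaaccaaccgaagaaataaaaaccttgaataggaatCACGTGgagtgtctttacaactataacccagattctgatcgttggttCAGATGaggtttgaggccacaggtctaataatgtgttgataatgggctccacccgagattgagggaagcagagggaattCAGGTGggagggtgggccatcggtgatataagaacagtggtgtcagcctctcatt
H1foo: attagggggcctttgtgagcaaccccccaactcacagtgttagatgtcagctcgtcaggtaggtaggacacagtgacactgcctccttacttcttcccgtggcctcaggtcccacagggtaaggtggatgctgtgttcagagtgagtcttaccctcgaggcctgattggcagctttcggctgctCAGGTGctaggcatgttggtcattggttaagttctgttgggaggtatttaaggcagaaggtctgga
Bmp15: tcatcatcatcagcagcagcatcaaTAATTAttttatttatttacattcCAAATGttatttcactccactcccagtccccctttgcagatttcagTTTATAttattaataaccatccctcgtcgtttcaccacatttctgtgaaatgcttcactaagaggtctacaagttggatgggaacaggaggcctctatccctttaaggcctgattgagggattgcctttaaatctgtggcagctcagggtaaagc
Utf1: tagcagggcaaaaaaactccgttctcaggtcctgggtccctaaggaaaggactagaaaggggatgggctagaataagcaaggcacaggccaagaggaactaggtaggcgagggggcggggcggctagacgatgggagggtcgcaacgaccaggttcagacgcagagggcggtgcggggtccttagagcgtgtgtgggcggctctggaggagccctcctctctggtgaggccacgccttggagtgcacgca

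These windows held 3 E-boxes for Zp3, 1 for H1foo, 1 for Bmp15 and 0 for Utf1. Only that of Bmp15 held a homeodomain core or the letters TATAAA, 1 of each. Its TATAAA was on the opposite strand, printed as TTTATA, with the first base 155 bases before the gene start. Spellings close to TATAAA were not searched. Of 27025 RefSeq promoters of this length, 66.0% held CANNTG, 4.90% TAATTA, 7.34% TAATTG and 13.0% TATAAA. A match is no binding site, and an absence says only that the letters are not in this window. A comparison of promoter features between higher and lower genes was void, since a promoter was found for 79.2% of the higher genes, below the 80% set as the least, and for 80.2% of the lower ones.

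Messages of maternal effect genes were mostly higher. Of 23 maternal effect genes, whose products the embryo takes over from the egg, 16 were higher, 2 lower and 5 within 2-fold, with a median of 6.83, and the list held 7.40% of the summed FPKM in oocytes and 0.328% in PGCs. Padi6, a protein of the oocyte's cytoplasmic lattices, was the most abundant message of the oocyte at 6223 FPKM, against 0.894 FPKM in PGCs, and its difference of 11.68 was the highest of all genes. It joins Nlrp5, Tle6, Ooep and Khdc3 in the subcortical maternal complex. Nlrp5 had 1766 FPKM in oocytes, against 0.304 FPKM in PGCs, and Tle6, with 2253 FPKM in oocytes, had 10.6 FPKM in PGCs. Uchl1, a ubiquitin hydrolase, was abundant in both, with 4223 FPKM in oocytes and 79.2 FPKM in PGCs. Zbed3 had 2989 FPKM in oocytes and 1.49 FPKM in PGCs. Dppa3, which protects the maternal genome from demethylation in the zygote, differed less, at 452 FPKM in oocytes and 176 FPKM in PGCs, a difference of 1.35. Trim28, a corepressor of imprint protection, was lower by contrast, at 148 FPKM in oocytes and 374 FPKM in PGCs. Of the 24 maternal effect genes listed, 9 were below 1 FPKM in PGCs. Those of them that were compared could not have been called lower.

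Several families of oocyte genes had most of their members higher. All 12 Nlrp genes on the list were higher, with a median of 6.66, led by Nlrp5 and by Nlrp14 at 2955 FPKM in oocytes and 1.62 FPKM in PGCs. Of these 12, 9 were below 1 FPKM in PGCs. These 9 were compared only through oocytes and could not have been called lower. Of 8 Oas1 family genes 6 were compared and all 6 were higher, with a median of 7.88, and the other 2 were below 1 FPKM in both groups. All 8 were below 1 FPKM in PGCs, so the 6 were compared only through their level in oocytes. A lower call was not possible for them, and their count and median follow in part from the filter. Oas1e had 732 FPKM in oocytes and 0.0898 FPKM in PGCs. These families hold near-identical copies, so the share of reads given to each member is uncertain. The next families were picked after their values were seen. Of 20 compared genes whose symbols begin with Fbxw, 16 were higher and 1 lower, against 27.6% higher and 29.4% lower of all compared genes. On chromosome 9, from 109139454 to 109746089 (GRCm38), 12 neighbouring Fbxw genes were all at least 8-fold higher, with 112 to 1013 FPKM in oocytes and at most 0.174 FPKM in PGCs. In all, 9 runs of at least 4 neighbouring compared genes were each at least 8-fold higher throughout, and 0 runs were at least 8-fold lower throughout, where 6.99% of all compared genes were 8-fold higher and 3.58% 8-fold lower. Other runs held Oog2, Oog3 and Pramef12 on chromosome 4, Obox1, Obox2 and Obox5 on chromosome 7, and Oosp1, Oosp2 and Oosp3 on chromosome 19. Genes of the Fbxw, Obox and Oog4 runs had at most 0.174, 0.605 and 0.0491 FPKM in PGCs. They were compared only through oocytes and could not have been called lower. Neighbours of one family are also not independent, so the 9 runs against 0 were not taken as a difference in direction.

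**Figure D3:**
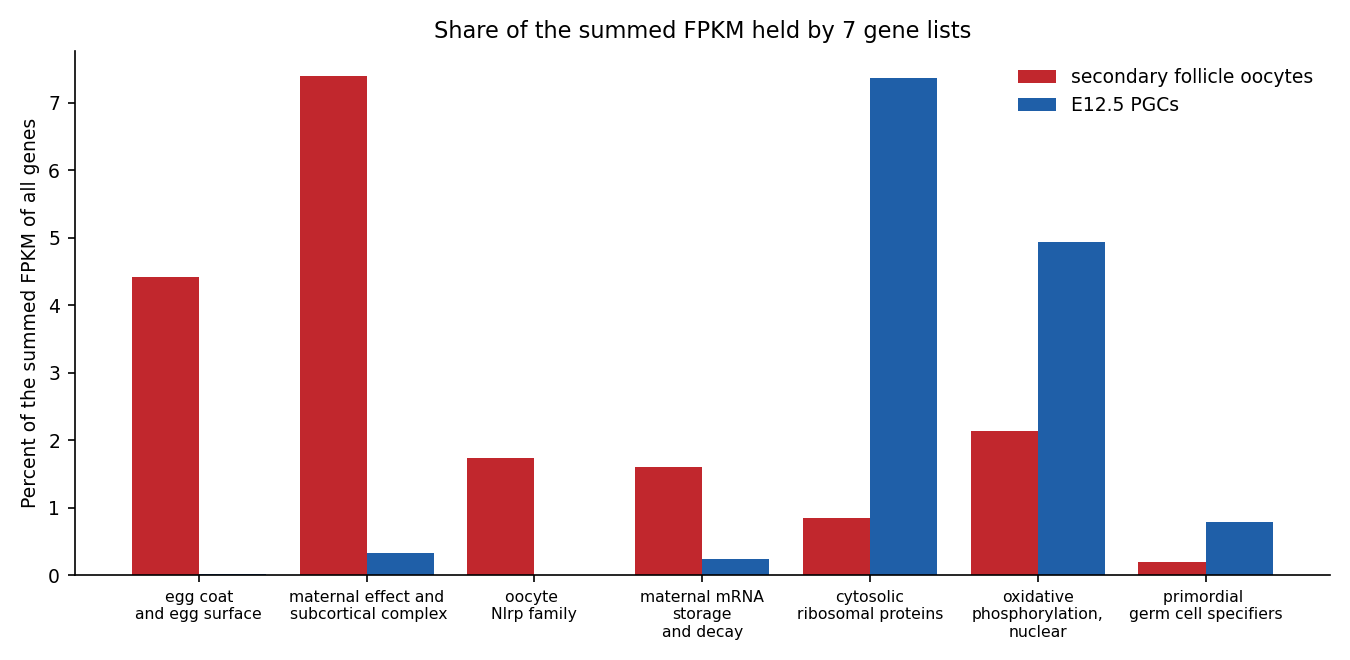
Percent of the summed FPKM of all genes held by 7 gene lists, with secondary follicle oocytes left of E12.5 PGCs. The maternal effect list holds 7.40% in oocytes and 0.328% in PGCs, and cytosolic ribosomal proteins 0.851% in oocytes and 7.37% in PGCs.

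Of 24 genes of mRNA storage and decay, 13 (54.2%) were higher and 1 lower, against 27.6% higher and 29.4% lower of all compared genes, with a median of 1.28. Zar1, an RNA-binding protein of the egg, had 1549.9 FPKM in oocytes, against 0.336 FPKM in PGCs, and Eif4e1b, an oocyte cap-binding protein, 801 FPKM in oocytes, against 0.176 FPKM in PGCs. Btg4, the adaptor that later brings deadenylases to maternal messages, was higher by 7.87. The general decay gene Cnot1 had 60.3 FPKM in oocytes and 56.7 FPKM in PGCs. Of 30 genes of prophase arrest and maturation, 13 (43.3%) were higher and 6 lower, with a median of 0.66. Mos, the kinase that keeps eggs in metaphase, had 368 FPKM in oocytes, against 0.135 FPKM in PGCs. Wee2, an oocyte kinase that inhibits CDK1, was higher by 6.76, and the cAMP genes Gpr3 and Pde3a by 4.03 and 4.29. Adcy3, an adenylyl cyclase, had 0.0672 FPKM in oocytes and 12.46 FPKM in PGCs.

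Signals and exchange with the follicle gave a mixed picture. Among 24 transport and junction genes 11 (45.8%) were higher and 5 (20.8%) lower, against 27.6% and 29.4% of all compared genes. Gja4, the connexin that joins oocyte and granulosa cells, had 426 FPKM in oocytes, against 1.93 FPKM in PGCs, while the other connexin Gjc1 had 3.62 FPKM in oocytes and 57.3 FPKM in PGCs. Slc6a9, the glycine transporter by which oocytes control their volume, was higher by 5.26. Of 24 genes of Kit and PI3K signalling, 3 were higher, 5 lower and 16 within 2-fold, among them Kit, the receptor of the somatic Kit ligand, at 102 FPKM in oocytes and 56.5 FPKM in PGCs.

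Of 19 oocyte chromatin genes 5 (26.3%) were higher, a share near the 27.6% of all compared genes, and 8 (42.1%) were lower, against 29.4% of all, with a median of -0.80. H1foo, the linker histone of oocytes, had 1693 FPKM in oocytes, against 0.216 FPKM in PGCs, and the nucleoplasmin gene Npm2, which decondenses sperm chromatin, 1847 FPKM in oocytes, against 0.334 FPKM in PGCs. The macroH2A gene H2afy was lower, at 12.6 FPKM in oocytes, against 216 FPKM in PGCs. Of 16 DNA methylation genes 8 were higher and 7 lower. Dnmt3l, the cofactor of the de novo methylation of the oocyte genome, had 54.7 FPKM in oocytes, against 0.00949 FPKM in PGCs. Its partner Dnmt3a had 34.6 FPKM in oocytes and 6.83 FPKM in PGCs. The maintenance methyltransferase Dnmt1 had 808 FPKM in oocytes and 96.2 FPKM in PGCs, and its recruiting factor Uhrf1 466 FPKM in oocytes and 11.4 FPKM in PGCs. The Tet oxidases, which start demethylation, differed in opposite directions. Tet3 had 37.8 FPKM in oocytes and 0.671 FPKM in PGCs, whereas Tet1 had 0.202 FPKM in oocytes and 17.4 FPKM in PGCs and Tet2 0.234 FPKM in oocytes and 6.22 FPKM in PGCs. Of 32 histone lysine methylation enzymes, 6 (18.8%) were higher and 13 (40.6%) lower. Kdm1b, a demethylase that oocytes need to methylate imprinted loci, was higher by 4.29, and the H3K9 methyltransferase gene Suv39h1 lower, with 0.568 FPKM in oocytes and 54.2 FPKM in PGCs.

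The piRNA list, whose pathway silences transposons, had 7 (35%) higher and 3 (15%) lower of 20. Of all compared genes 27.6% were higher and 29.4% lower. Gtsf1 had 374 FPKM in oocytes and 7.57 FPKM in PGCs, and Tdrd1 122 FPKM in oocytes and 5.33 FPKM in PGCs. Ddx4, the germ cell helicase, was level, at 146 FPKM in oocytes and 135 FPKM in PGCs. Of 15 genes of small RNA processing, 1 was higher and 8 lower. The higher one was Dicer1, which makes small interfering RNAs and microRNAs, at 87.6 FPKM in oocytes and 15.5 FPKM in PGCs. Dgcr8, needed for microRNAs but not for small interfering RNAs, had 13.1 FPKM in oocytes and 49.9 FPKM in PGCs.

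**Figure D4:**
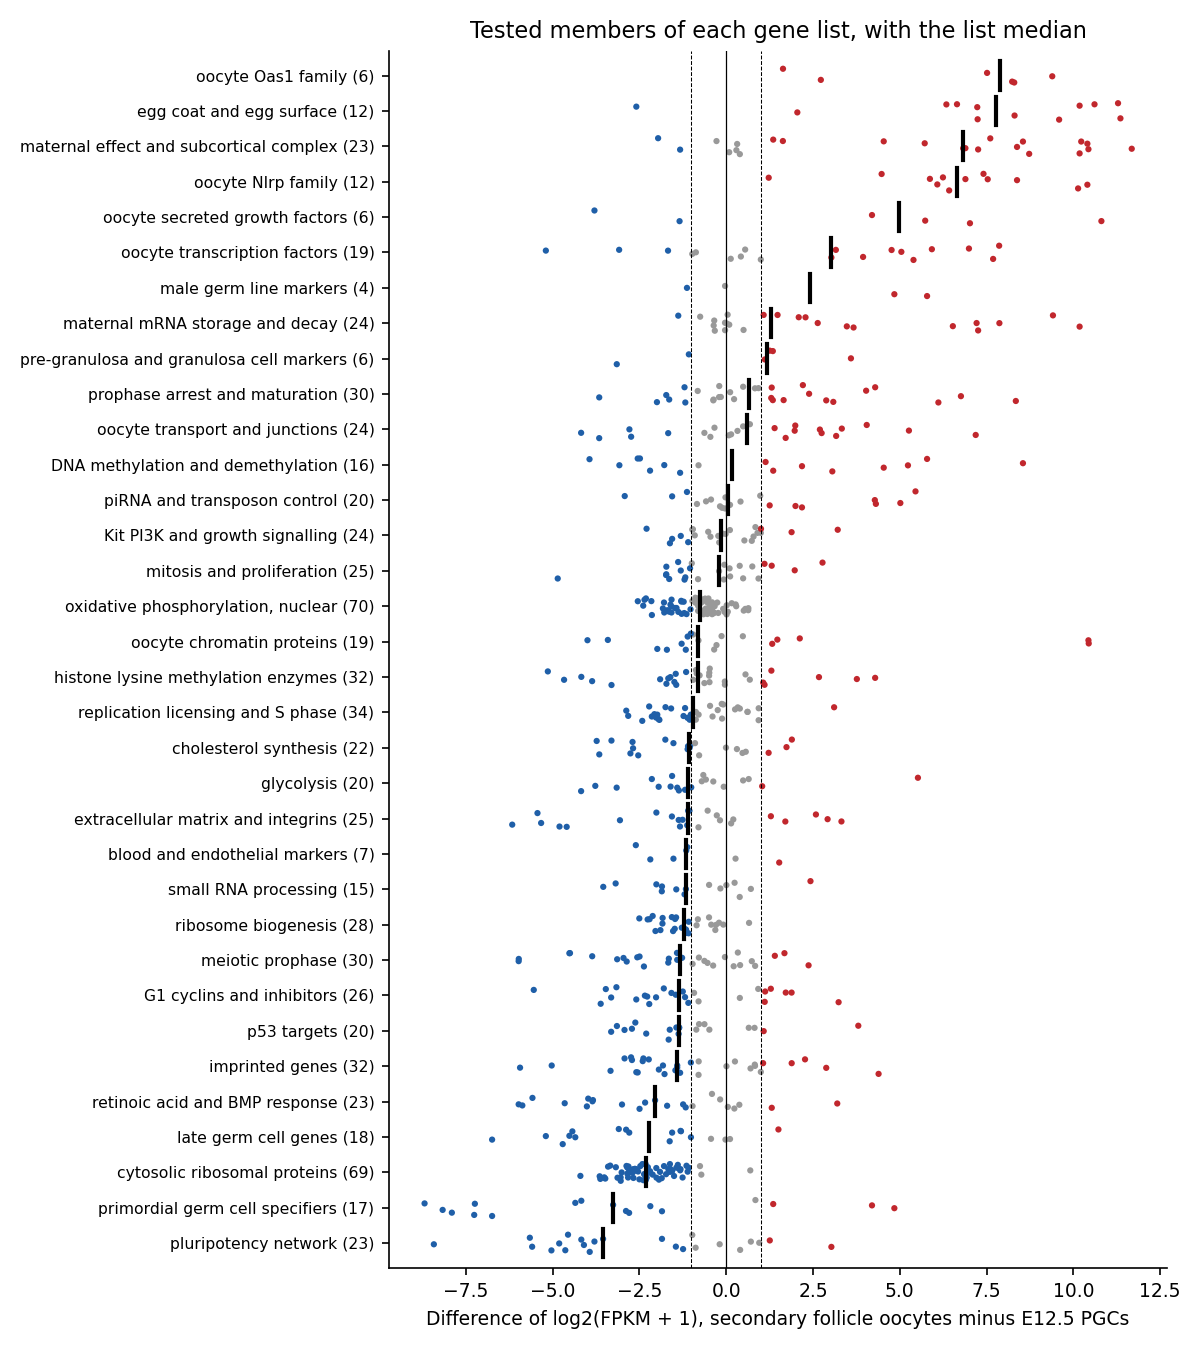
Difference of log2(FPKM + 1), secondary follicle oocytes minus E12.5 PGCs, of each compared member (points) and the median (bars) of the 34 lists with at least 4 compared members, with the number compared in brackets; dashed lines mark 2-fold. Oas1, egg coat, maternal effect and Nlrp lists have medians above 6, and the pluripotency list lies lowest at -3.55.

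Most listed genes of the PGC programme were lower in oocytes. Of 17 germ cell specifier genes 13 were lower and 3 were higher, and the median difference was -3.26. The higher ones were Nanos2, Fgf8 and Dppa3, by 4.84, 4.20 and 1.35. Rhox5, an X-linked homeobox gene, had the lowest difference of all, -8.69, with 0.114 FPKM in oocytes and 459 FPKM in PGCs. Ifitm1, a membrane protein gene of early germ cells, had 0.166 FPKM in oocytes and 334 FPKM in PGCs. Dnd1, an RNA-binding protein that PGCs need to survive, had 0.357 FPKM in oocytes and 144 FPKM in PGCs, and Prdm14, a PGC regulator, 0.0128 FPKM in oocytes and 17.3 FPKM in PGCs. Of 23 pluripotency genes 15 were lower and 2 were higher, and the median difference was -3.55. Utf1, a chromatin factor of pluripotent cells, had 0.0833 FPKM in oocytes and 370.2 FPKM in PGCs. Sox2 had 1.10 FPKM in oocytes and 105 FPKM in PGCs, and Nanog 0.00463 FPKM in oocytes and 31.9 FPKM in PGCs. Not every gene of the network was lower. Pou5f1, which acts with both, had 197 FPKM in oocytes and 363 FPKM in PGCs, a difference of -0.88, and Tcl1, a cofactor of AKT, was higher at 422 FPKM in oocytes and 50.8 FPKM in PGCs. Under equal sums of both groups Pou5f1 passed 2-fold, at -1.21.

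Of 18 genes on the list named for later germ cells, 14 were lower and 1 was higher. The list is not confined to later genes. It holds Dnd1, also counted with the specifiers, and Nanos3, read above as a germ cell marker. Dazl, an RNA-binding protein of germ cells, had 57.7 FPKM in oocytes and 432 FPKM in PGCs, a difference of -2.88. Of 23 genes of the retinoic acid and BMP response, 15 were lower and 2 were higher, and the median difference was -2.05. Stra8, which retinoic acid turns on as meiosis begins, had 0.0247 FPKM in oocytes and 63.6 FPKM in PGCs. The BMP target Id1 had 1.46 FPKM in oocytes and 117 FPKM in PGCs, and Gata2 0.220 FPKM in oocytes and 70.4 FPKM in PGCs. Of 30 genes of meiotic prophase 16 were lower and 3 were higher, and the median difference was -1.34. The meiotic cohesins Rec8 (0.0174 FPKM in oocytes, 63.0 FPKM in PGCs) and Stag3 (2.74 FPKM in oocytes, 83.6 FPKM in PGCs) were among the lower ones, as was the recombinase Dmc1 (0.286 FPKM in oocytes, 17.7 FPKM in PGCs). The following genes of the chromosome axis were not lower. Sycp3 of the synaptonemal axis had 47.3 FPKM in oocytes and 35.6 FPKM in PGCs, and Sycp2 16.4 FPKM in oocytes and 4.45 FPKM in PGCs.

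Genes of dividing cells were lower in part. Of 34 replication genes 17 were lower and 1 was higher, and the median difference was -0.95. The licensing helicase gene Mcm3 had 16.6 FPKM in oocytes and 124 FPKM in PGCs, and Gins2, the one that was higher, 105 FPKM in oocytes and 11.3 FPKM in PGCs. Of 25 mitosis genes 10 (40%) were lower and 4 (16%) were higher, and the median difference was -0.20. Of all compared genes 29.4% were lower and 27.6% higher. The proliferation marker Mki67 had 12.0 FPKM in oocytes and 42.1 FPKM in PGCs, and Top2a, a topoisomerase, 2.82 FPKM in oocytes and 109 FPKM in PGCs. Birc5, of the chromosomal passenger complex, was higher at 431 FPKM in oocytes and 62.1 FPKM in PGCs. Of 26 G1 regulators 16 were lower and 6 higher. Ccnd1, a G1 cyclin, had 0.211 FPKM in oocytes and 13.8 FPKM in PGCs, and the inhibitor Cdkn1b 20.5 FPKM in oocytes and 4.82 FPKM in PGCs. The inhibitors differed in both directions. Cdkn1a was lower, at 1.26 FPKM in oocytes and 21.5 FPKM in PGCs. Cdkn2b and Cdkn2c were higher, by 1.72 and 1.12, and Cdkn1c was within 2-fold.

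Messages for the ribosome were lower almost throughout. Of 69 cytosolic ribosomal protein genes 66 were lower and 0 were higher, and the median difference was -2.32. The list held 0.851% of the summed FPKM in oocytes and 7.37% in PGCs. Rplp1, the most abundant message of the PGCs, had 329 FPKM in oocytes and 2889.9 FPKM in PGCs. Many of these genes have processed pseudogenes, and single low values are uncertain: the housekeeping gene Gapdh, which has many, was at 0.0428 FPKM in oocytes and 0.288 FPKM in PGCs. Of 28 ribosome biogenesis genes 19 were lower and 0 were higher, and the median difference was -1.23, among them the nucleolar gene Npm1 at 59.8 FPKM in oocytes and 343 FPKM in PGCs. Of 70 nuclear genes of oxidative phosphorylation 26 (37.1%) were lower, against 29.4% of all compared genes, and 0 were higher. The other 44 were within 2-fold, and the median difference was -0.77. The ATP synthase subunit gene Atp5b had 163 FPKM in oocytes and 954 FPKM in PGCs.

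Of 20 glycolysis genes 11 were lower and 2 higher. The subunit genes of lactate dehydrogenase, which converts pyruvate and lactate, differed in opposite directions. Ldhb had 3107 FPKM in oocytes and 66.6 FPKM in PGCs, and Ldha had 0.389 FPKM in oocytes and 17.9 FPKM in PGCs. Ldha has pseudogenes too, so its low value is uncertain. The glucose transporter gene Slc2a3 had 0.0213 FPKM in oocytes and 17.5 FPKM in PGCs. Of 22 cholesterol synthesis genes 13 were lower and 3 higher. Dhcr7, of the last step, had 6.76 FPKM in oocytes and 49.3 FPKM in PGCs, and Fdft1, squalene synthase, 92.2 FPKM in oocytes and 24.1 FPKM in PGCs.

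Of 20 genes of p53 and its targets 12 were lower and 2 higher. Trp53 itself had 6.77 FPKM in oocytes and 50.04 FPKM in PGCs, and its relative Trp63, which guards oocytes against DNA damage, 16.9 FPKM in oocytes and 0.282 FPKM in PGCs. Of 32 imprinted genes 19 were lower and 5 higher. H19 had 0.0256 FPKM in oocytes and 32.4 FPKM in PGCs, and Phlda2 2.75 FPKM in oocytes and 229 FPKM in PGCs, whereas Mest had 43.8 FPKM in oocytes and 8.27 FPKM in PGCs. Of 25 matrix and integrin genes 14 were lower and 5 higher, with the basement membrane gene Nid2 at 0.0812 FPKM in oocytes and 76.5 FPKM in PGCs. Vim, counted with the stromal markers, was lower in oocytes as these matrix genes were, and its part was not tested. Of 39 Hox genes 2 were compared and both were higher: Hoxa7 had 6.25 FPKM in oocytes and was listed at 0 in PGCs, and Hoxd9 had 5.55 FPKM in oocytes and 0.103 FPKM in PGCs. All 39 were below 1 FPKM in PGCs, so these 2 were compared only through oocytes and could not have been called lower.

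On the X chromosome a larger share of genes was lower in oocytes than on the autosomes. Of 449 compared X-linked genes 96 (21.4%) were higher and 201 (44.8%) lower, with a median of -0.79. Of 12046 autosomal genes 27.9% were higher and 28.8% lower, with a median of -0.09. Xist, the RNA that coats an inactive X chromosome, had 0.0465 FPKM in oocytes and 0.678 FPKM in PGCs. Of 14 compared genes whose symbols begin with Rhox, all in an X-linked cluster, 12 were lower and 1, Rhox10, was higher, at 8.15 FPKM in oocytes and 1.43 FPKM in PGCs. No test of the chromosome difference was possible with 1 value per group.

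**Figure D5:**
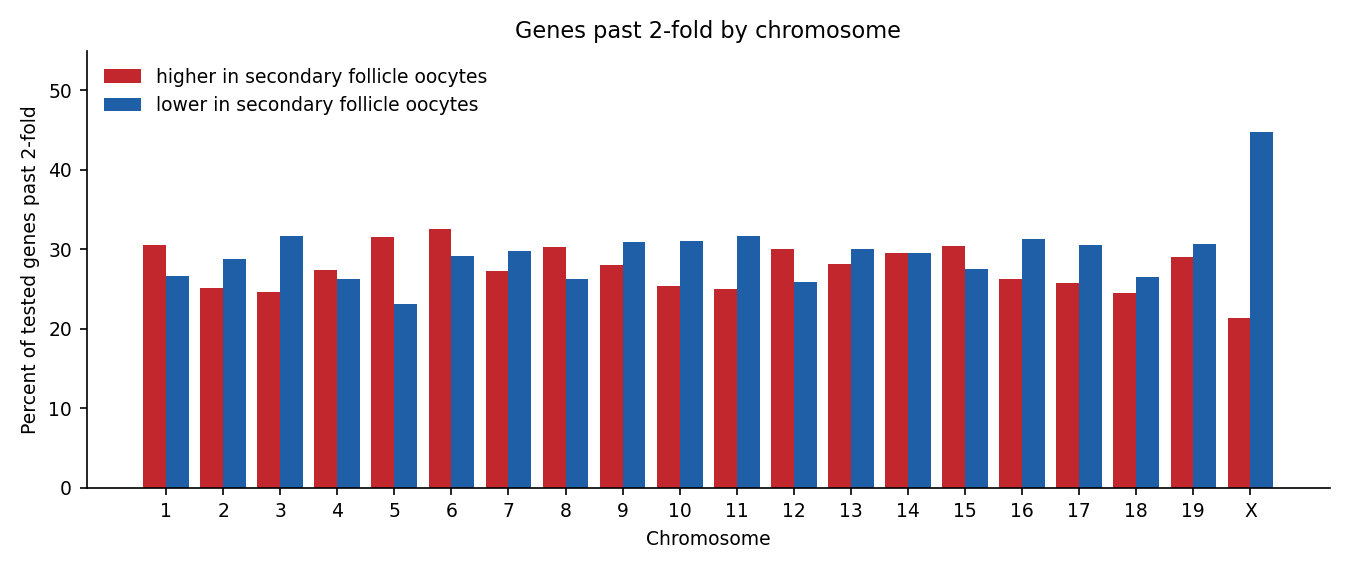
Percent of compared genes on each chromosome that were at least 2-fold higher or at least 2-fold lower in secondary follicle oocytes than in E12.5 PGCs. On the X chromosome 44.8% were lower and 21.4% higher.

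The levels at the secondary follicle stage were set beside those of MII oocytes from females aged 8 weeks, which share no sample with either group. Along the stages PGC, secondary follicle and MII, Zp3 had 1.22, 5544 and 79.8 FPKM. Padi6 had 0.894, 6223 and 79.6 FPKM over the same stages, so both were highest in the growing oocyte. H1foo had 0.216, 1693 and 18049 FPKM, Btg4 0.0189, 237 and 10543 FPKM, and both were highest at MII. Dazl had 432, 57.7 and 414 FPKM, lowest in the growing oocyte. FPKM are relative and only poly(A) RNA was sequenced, so these series do not give amounts of RNA per cell.

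The same step was taken in culture by other samples, of the strain cross C57BL/6 X 129, in which day 21 secondary follicle oocytes were compared with PGC-like cells (PGCLCs) after 3 days with gonadal somatic cells. In culture 28.1% of 12793 compared genes were higher in oocytes and 29.4% lower. Of the 3466 genes higher in the animal 3075 were also higher in culture, 88.7% of the animal list and 85.6% of the culture list. Of the 3683 lower genes 3138 were also lower in culture, 85.2% of the animal list and 83.6% of the culture list, and 0 genes were called in opposite directions. Among genes that differed most between the steps, chosen after their values were seen, some had the higher difference in the animal and some in culture. They were ranked only over genes without a predicted or clone symbol that reached 10 FPKM in either animal group. Genes high only in culture were therefore not ranked. Slc26a5, a membrane motor protein gene, lay furthest apart, with a difference of 4.50 in the animal and 0.46 in culture, and the translation initiation factor gene Eif4g3 had 2.75 in the animal and 0.07 in culture. In the other direction Tmem159 lay furthest apart, with a difference of -2.80 in the animal and 0.46 in culture, and Sohlh2 had -5.19 in the animal and -2.98 in culture.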

How the data were processed

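Libraries of poly(A) RNA were made with 12 cycles of PCR, per the labels' protocols, for 23 samples in 8 groups. The submitters' processing notes name TopHat2, Bowtie2 2.0.13, Cufflinks, Cuffdiff 2.2.1 and the mouse build mm10, and the authors deposited FPKM, 1 value per gene and group. FPKM are relative, so a few very abundant genes lower the values of all others. Depth is unknown.

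From these values the difference of log2(FPKM + 1), secondary follicle oocytes minus E12.5 PGCs, was computed with Python 3.11.15, pandas 2.3.3 and NumPy 2.4.6, over genes with at least 1 FPKM in either group. A difference of 1 was called. With 1 value per group no test was run. The steps were tested on simulated data.

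Members and gene lists were chosen with earlier results of these data known. The 36 lists asked for 877 symbols, of which 6 were not found. Named genes were the 15 highest and 15 lowest differences of genes that reached 10 FPKM in their higher group and have no predicted or clone symbol, the 10 most abundant of each group, up to 6 called members per list and direction with 3 within 2-fold, and some marker genes. Other genes were chosen after their values were seen.

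Promoters are those of RefSeq on GRCm38.p6, matched by symbol. The matching was set after seeing the data: the first listed window was taken for each gene, which covered 80.5% of compared genes and 79.2% of the higher ones. Taking only genes with exactly 1 window covered 64.1%, and leaving chromosome 18 out of the count of genes raised the coverage of the higher genes to 80.9%. Promoter features were seen under all 3, and since the higher genes fell below the 80% limit under the matching used, no comparison of them is given.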

Additional observations from a re-analysis of the deposited data

How the results depend on the processing

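The counts of genes higher and lower in oocytes stayed within 1.5 times the reported counts under a pseudocount of 0.1, a minimum of 5 FPKM, no filter, quantile normalization, equal sums of both groups and centring on the median. A pseudocount of 5 gave 2236 higher and 1977 lower genes. Equal sums moved the median of all genes from -0.11 to -0.41, and the share of calls that were higher from 48.5% to 39.2%. No list median and no named gene changed sign past 2-fold under these alternatives. List medians that left 2-fold, with the cause not tested, were as follows. With a pseudocount of 5 they were -0.40 for small RNA processing, -0.87 for meiotic prophase, -0.86 for G1 cyclins and inhibitors, -0.57 for glycolysis, -0.79 for cholesterol, -0.67 for p53 targets, -0.66 for imprinted genes, -0.43 for matrix, 0.43 for granulosa markers and -0.32 for blood markers. With a filter of 5 FPKM it was -0.62 for glycolysis. With no filter, which adds genes near 0 in both groups, they were 0 for oocyte secreted growth factors, -0.85 for glycolysis, -0.79 for imprinted genes, -0.61 for matrix, 2.50e-05 for granulosa markers, -0.31 for blood markers and 0 for male germ line. Equal sums gave 0.96 for maternal mRNA storage and decay and 0.93 for granulosa markers. Centring gave -0.98 for glycolysis, -0.96 for cholesterol and -0.98 for matrix. List medians that came to pass 2-fold were -1.11 for oocyte chromatin proteins, -1.11 for histone lysine methylation enzymes, -1.27 for replication and -1.09 for oxidative phosphorylation under equal sums, and -1.19 for replication and -1.02 for oxidative phosphorylation under quantile normalization.

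No paired analysis was possible because the table has no column per replicate, and leaving out a replicate could not be run for the same reason. Values below 1 FPKM cannot be told from 0 without the depth, and low values of genes with pseudogenes or near-identical copies are uncertain.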

Other observations

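The Srsf and Snhg families, outside the gene lists and picked after their values were seen, were mostly lower in oocytes. They had the lowest medians of all symbol families with at least 8 compared genes. Of all compared genes 29.4% were lower and 27.6% higher. Of 11 compared Srsf genes, which encode serine- and arginine-rich splicing factors, 9 were lower and 0 higher, with a median difference of -2.40. Srsf2 had 58.0 FPKM in oocytes and 336 FPKM in PGCs, and Srsf6 had 16.0 FPKM in oocytes and 116 FPKM in PGCs. Srsf4, at 27.2 FPKM in oocytes and 48.6 FPKM in PGCs, was within 2-fold. Of 12 compared Snhg genes, the host genes of small nucleolar RNAs, 10 were lower and 1 higher, with a median of -2.74. Snhg1 had 13.6 FPKM in oocytes and 157 FPKM in PGCs, Snhg3 had 1.26 FPKM in oocytes and 50.3 FPKM in PGCs, and the one that was higher, Snhg18, had 4.61 FPKM in oocytes and 1.28 FPKM in PGCs.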
